A study of Mus musculus with 4 samples.

Results

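Adipose spots were the positions on spatial slides of mouse back skin at which the genes of fat cells were most abundant. Visium slides carry barcoded spots that bind RNA released from a tissue section, so that each count keeps a position, and the area of a single spot usually covers a group of neighbouring cells that need not be of 1 type. For every spot with at least 250 detected genes, ln(1 + 10000 × UMIs / total UMIs of the spot) was averaged over *Adipoq*, *Cfd*, *Thrsp*, *Cdo1*, *Plin1* and *Car3*, where UMIs (unique molecular identifiers) count captured RNA molecules. The top 7% of spots of each slice were taken, which gave 449 adipose spots among 6411 (115, 123, 109 and 102 in replicates 1 to 4), and the remaining 5962 are called other spots. At the edge of the selection, the last spot inside scored 0.9738, 1.0174, 1.0844 and 1.1540 in the 4 slices and the first spot outside 0.9682, 1.0167, 1.0832 and 1.1508, so the spots form a range without a gap. The median score was 1.16, 1.23, 1.25 and 1.38 in adipose spots and between 0.310 and 0.360 in other spots.

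All samples belonged to 1 group. Dorsal skin was taken at P38 from 3 *Krox20-CreERT; R26-tdTomato* mice that had received 4-hydroxytamoxifen at P2, so that every animal carried the Cre recombinase under the control of *Krox20* and the *tdTomato* reporter at the *Rosa26* locus, and no treatments or genotypes were compared. Each of the 4 slices held a section of each of the 3 mice. The slices are technical replicates, and the SD and p-values between them do not cover differences between mice. The study set the fourth section aside as distorted, without stating whether this was a slice or a piece of skin on a slice, so it may be replicate 4. The labels do not mark it, and all spots were used. Without replicate 4, 197 genes instead of 207 were at least 2-fold higher in adipose than in other spots and 177 instead of 196 at least 2-fold lower. The slices held 26910422, 24128004, 21384253 and 19393026 UMIs. Adipose spots were deeper than other spots, with a median of 16518, 13160, 12204 and 12256 UMIs per spot against 14468, 11935, 11931 and 11621. The 13 mitochondrial genes took 4.27%, 5.03%, 5.23% and 6.01% of the UMIs in adipose spots against 3.36%, 4.41%, 4.59% and 5.16% in other spots, higher in each slice, and the part of depth and mitochondrial RNA in the differences between the groups was not tested.

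Dermal white adipose tissue is the layer of fat cells below the reticular dermis, bounded in mouse back skin by the panniculus carnosus muscle. Its adipocytes take up fatty acids that lipoprotein lipase frees from circulating lipoproteins, synthesise further fatty acids from glucose, store both as triglyceride in a single large lipid droplet and release them by lipolysis. They also secrete adipokines, expand with the growth phase of the hair cycle and surround the bulbs of growing hair follicles.

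The genes of the score describe what was selected and are not findings. *Adipoq*, encoding adiponectin, reached 232 ± 44.8 CPM (the gene's UMIs over all UMIs summed in the same spots, scaled to 1000000, SD, n = 4 slices) in adipose spots and 28.4 ± 2.92 CPM in other spots, and *Cfd*, encoding adipsin, 1854 ± 160.2 against 272 ± 25.4 CPM. *Plin1*, which coats lipid droplets, reached 48.2 ± 10.1 against 6.39 ± 0.966 CPM. When the UMIs were split at random and members chosen on one part, the part left out gave 204 ± 37.1 against 30.5 ± 4.05 CPM for *Adipoq* and 41.7 ± 11.3 against 6.603 ± 0.895 CPM for *Plin1*, so most of the difference was also present in molecules that had not chosen the spots. *Car3*, encoding carbonic anhydrase 3, is also a gene of skeletal muscle, and with 1265 ± 157 against 406 ± 74.2 CPM it differed least among the 6 genes. Since an adipocyte holds all of its transcripts in the same spot, its other genes had to be higher in adipose spots to some extent, and the tests of adipose against other spots below measure the size of the differences and their spread over slices and are no independent evidence that the spots contain fat.

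The label was set beside 23 adipocyte markers outside the score, whose levels describe the spots chosen and, for the reason just given, do not test whether they contain fat. All 23 could be fitted and 22 were higher in adipose spots, at an adjusted p under 0.05 (edgeR quasi-likelihood test with the slice as a block, Benjamini-Hochberg adjustment over 13608 genes), with a median log2 fold change of 1.82. Over all genes fitted, 8.99% were higher and 9.39% lower, and the median was 0.010. *Cebpa*, an adipogenic transcription factor that other skin cells also use, was the exception (75.5 ± 27.8 against 65.9 ± 11.6 CPM, adjusted p = 0.34). *Fabp4*, a fatty acid carrier, was the most abundant member on the UMI scale and had one of the smaller differences (1895 ± 145 against 1070.2 ± 115 CPM, log2 fold change 0.80 ± 0.040). *Ucp1*, the defining gene of thermogenic fat, had no UMI in any of the 449 adipose spots, which allows a share of spots with a UMI of up to 0.668% by counting error alone, against 0.118% ± 0.0339 of other spots.

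The share of single spots with a UMI was also compared. *Lep* was found in 24.7% ± 4.83 of adipose spots, 4.08% ± 0.747 of other spots and 0.474% ± 0.548 of epidermis-gene spots. The last, the top 7% of each slice for keratinocyte genes, should lack it and serve as a background. Free RNA and RNA of the cells in these spots were not told apart. With each spot thinned to 5000 UMIs the shares were 8.998% ± 1.68, 1.42% ± 0.246 and 0% ± 0. For *Cidec* the shares were 67.9% ± 4.22, 15.96% ± 0.9795 and 3.78% ± 1.88, and thinned 35.8% ± 6.19, 7.197% ± 0.405 and 2.27% ± 0.468. *Fabp4* did not separate the regions this way, with 99.4% ± 0.789, 97.3% ± 1.55 and 90.8% ± 6.197. A *Pparg* UMI was found in 12.5% ± 1.52 of adipose spots, 5.28% ± 0.486 of other spots and 3.13% ± 0.555 of epidermis-gene spots, and thinned in 3.98% ± 1.45, 2.24% ± 0.209 and 2.25% ± 0.315.

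**Figure D1:**
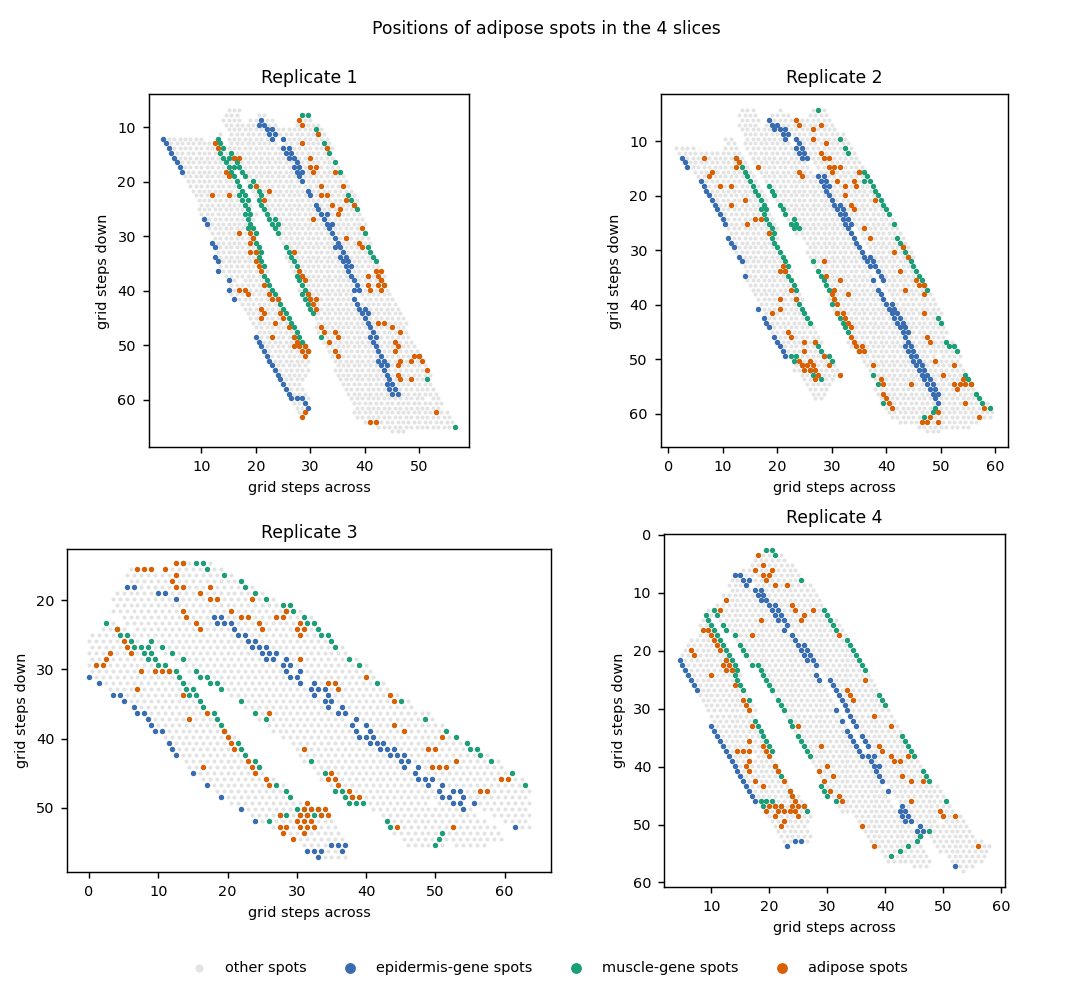
Positions of the spots in the 4 slices, in grid steps across and down; each slice holds 3 pieces of skin side by side, orange points are adipose spots, green points muscle-gene spots, blue points epidermis-gene spots and grey points the remaining spots. Adipose spots lie mostly beside the muscle line in the left-hand piece and at middle depth in the right-hand piece.

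Position on the slide was not used to choose the spots. Distances are in grid steps, the spacing of adjacent spots. Of the grid neighbours of adipose spots, 19.3%, 17.3%, 24.9% and 19.3% were adipose spots in replicates 1 to 4, a mean of 20.2% ± 3.26, against 7.003% of all spots. The share was higher in 4 of 4 slices, and the exact two-sided sign-flip permutation test gave p = 0.13, the smallest value that 4 slices allow. Of the 449 adipose spots 306 had an adipose neighbour and 143 had none (31.7% ± 8.80 of the spots of a slice). In replicates 2 to 4 a patch lay at the lower end of the left-hand piece.

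Adipose spots lay closer to the muscle than other spots did. This distance is not independent of the rule, whose score holds the muscle gene *Car3*. Of the 449 adipose spots 56 were also muscle-gene spots, and the part of the rule in the distance was not tested. Muscle-gene spots were taken as the top 7% of each slice for *Acta1*, *Ckm*, *Myh4*, *Tnnt3*, *Mylpf* and *Atp2a1*, and the nearest was 2.77, 2.41, 2.43 and 2.67 grid steps away from adipose spots on average in the 4 slices, against 4.96, 4.15, 3.82 and 4.14 steps from other spots, with no overlap. With muscle-gene spots left out of both groups the distance was 2.93 ± 0.22 against 4.57 ± 0.51 steps, with a score without *Car3* and *Cfd* it was 2.76 ± 0.44 against 4.25 ± 0.47, and with both changes 2.95 ± 0.44 against 4.58 ± 0.50, each time smaller in 4 of 4 slices (exact permutation p = 0.13). Epidermis-gene spots were further from adipose spots (5.40 ± 0.45 steps) than from other spots (4.21 ± 0.29), and so were sebaceous-gene spots (4.16 ± 0.44 against 3.35 ± 0.19), each in 4 of 4 slices (exact permutation p = 0.13). The distance to hair-gene spots was 2.75 ± 0.62 against 2.69 ± 0.079 steps, larger in 2 of 4 slices (exact permutation p = 1), and the distance to fibroblast-gene spots was larger in 3 of 4 (4.02 ± 0.61 against 3.43 ± 0.11, exact permutation p = 0.25).

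Along the way from the epidermis-gene to the muscle-gene spots, divided into 5 zones after the map had been seen, the outermost zone held 3 adipose spots, 0.249% ± 0.310 of its spots. The zones between held 6.76%, 5.25% and 6.39%. In the deepest zone 18.7%, 14.3%, 14.4% and 13.7% of spots were adipose spots in the 4 slices, a mean of 15.3% ± 2.29 and 206 spots in all. The deepest zone exceeded the outermost by 15.0 ± 2.02 percentage points in 4 of 4 slices (exact permutation p = 0.13). Its share was 16.8% ± 2.80 with muscle-gene spots left out, 14.03% ± 1.78 with the score without *Car3* and *Cfd* and 17.8% ± 2.12 with both changes, and it exceeded the outermost zone in 4 of 4 slices each time.

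The depth was not the same across a slice. When each slice was divided into 3 strips of equal numbers of spots across its pieces, again after the map had been seen, the right-hand strip held 180, the middle strip 48 and the left-hand strip 221 adipose spots. The median adipose spot lay at 0.437 to 0.571 of the way from epidermis to muscle in the right-hand strip and at 0.857 to 0.882 in the left-hand strip, without overlap between slices. It was 3 to 4 steps from the nearest muscle-gene spot in the former and 1 step in the latter. The labels do not tie the pieces to mice, so a difference between mice and one between places on the slide cannot be told apart.

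**Figure D2:**
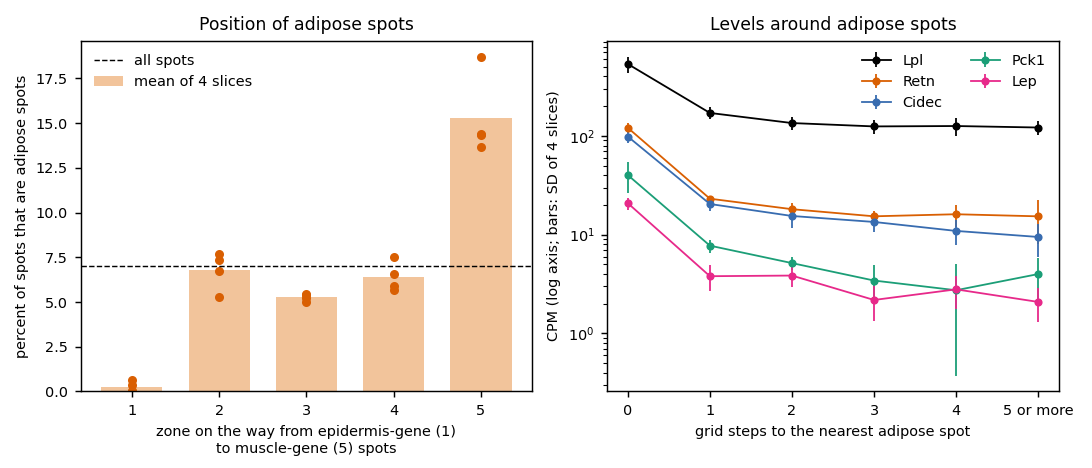
Left, percent of spots that are adipose spots in each of 5 zones on the way from epidermis-gene to muscle-gene spots; bars are means of 4 slices, points single slices and the dashed line all spots. The deepest zone lies at 13.7% to 18.7% in the 4 slices, above every other zone. Right, CPM (log axis, mean and SD of 4 slices) of 5 adipocyte genes by grid steps to the nearest adipose spot, with a sharp drop between the adipose spots and their neighbours.

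Levels of adipocyte genes outside the score fell off within 1 grid step. *Retn* went from 121 ± 13.9 CPM in adipose spots to 23.1 ± 0.843 CPM in spots next to them and 15.3 ± 7.25 CPM at 5 or more steps. *Lpl* went from 535 ± 99.9 to 171 ± 24.1 and 122 ± 19.1 CPM. *Lep* had 20.8 ± 2.84, 3.799 ± 1.13 and 2.09 ± 0.789 CPM at these distances. *Acta1*, the actin of skeletal muscle, declined more slowly, from 3345 ± 222 through 2582 ± 341 to 1019 ± 355 CPM. Neighbours of selected spots are by the rule spots that scored lower, so the first step of this decline is partly fixed by the choice of spots and the profile is a description.

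Of 13608 genes fitted, 207 were at least 2-fold higher in adipose than in other spots (1.52%) and 196 at least 2-fold lower (1.44%). The 25 genes with the largest differences, among those with at least 20 CPM and the same direction in 4 of 4 slices, were grouped by role. This choice largely fixed beforehand that their values in the 2 groups would not overlap. No share of all genes without overlap is given, so nothing is read from the lack of overlap in these genes. The leading gene was *Pck1* (chr2:173153048-173159273 on the plus strand in GRCm38), encoding the cytosolic phosphoenolpyruvate carboxykinase, which in fat cells supplies glycerol 3-phosphate for triglyceride synthesis from precursors other than glucose. It had 25.5, 41.6, 34.9 and 58.5 CPM in adipose spots of replicates 1 to 4 and 5.099, 3.72, 5.301 and 6.32 CPM in other spots. The groups did not overlap, and adipose spots of replicate 4 were highest. The log2 fold change was 2.91 ± 0.16 (SE, edgeR adjusted p = 5.0e-12), and 2.64 when spots were chosen on one part of the UMIs and the gene measured on the other.

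Of the secreted factors, *Lep* (chr6:29060220-29073877, plus strand), encoding the satiety hormone leptin, had 21.4, 24.6, 19.05 and 18.3 CPM in adipose spots and 3.399, 3.498, 3.03 and 2.55 CPM in other spots, without overlap, and a log2 fold change of 2.70 ± 0.17 (edgeR adjusted p = 1.9e-11). *Retn* (chr8:3655770-3660110, plus strand), encoding the adipokine resistin, had 111, 135, 107 and 130.3 against 19.1, 17.4, 20.4 and 17.1 CPM, and its log2 fold change was 2.67 ± 0.092 (edgeR adjusted p = 5.6e-16). The levels of both genes differed little between slices, with the highest adipose value of each in replicate 2. *Hp* (chr8:109575128-109579172, minus strand), encoding the haemoglobin-binding haptoglobin, had 432, 519.8, 592 and 539 against 91.9, 86.8, 114 and 95.4 CPM and a log2 fold change of 2.40 ± 0.055 (edgeR adjusted p = 8.6e-19). *Rbp4*, the plasma carrier of retinol, had 20.01, 27.4, 26.7 and 34.4 against 3.88, 4.26, 4.04 and 5.104 CPM (2.60 ± 0.15). Both were again separated in every slice.

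The other secreted proteins among the 25 genes were *Lrg1*, a leucine-rich glycoprotein of plasma (94.2 ± 14.4 against 25.6 ± 1.096 CPM), *Trf*, the iron carrier transferrin (186 ± 22.99 against 62.4 ± 5.87 CPM), and the complement genes *C4b* (135 ± 4.66 against 40.2 ± 3.27 CPM) and *Cfb* (34.6 ± 8.12 against 13.04 ± 0.571 CPM). Complement factor B is the substrate of adipsin, the product of the score gene *Cfd*. Their log2 fold changes were 1.86 ± 0.085, 1.55 ± 0.065, 1.72 ± 0.065 and 1.36 ± 0.13. Reads of *C4b* can be shared with the near-identical *C4a*, which makes its value uncertain.

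Of the proteins of the lipid droplet, *Cidec* (chr6:113424634-113435760, minus strand), which drives the fusion of droplets into the single large droplet of white fat cells, had 89.6, 90.3, 97.1 and 117 CPM in adipose and 13.6, 14.5, 15.04 and 17.2 CPM in other spots, without overlap, and a log2 fold change of 2.68 ± 0.078 (edgeR adjusted p = 2.4e-17). *G0s2*, the inhibitor of adipose triglyceride lipase, had 45.02, 50.3, 48.9 and 67.3 against 9.55, 9.37, 9.995 and 9.21 CPM (2.42 ± 0.12). *Plin4*, a perilipin of nascent droplets, had 52.3, 66.8, 47.6 and 69.5 against 10.97, 11.6, 14.1 and 13.1 CPM (2.22 ± 0.12). In each of these genes every adipose value lay above every other value. Of the genes of fatty acid supply, *Lpl* had 445, 465, 570.1 and 660.1 against 120.2, 130.4, 151 and 159 CPM, highest in replicate 4 in both groups, and a log2 fold change of 1.90 ± 0.047 (edgeR adjusted p = 1.7e-18). *Abcd2*, a peroxisomal transporter of fatty acyl-CoA, had 32.7, 30.1, 28.6 and 31.5 against 5.42, 5.34, 7.17 and 5.88 CPM (2.36 ± 0.14).

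Besides *Pck1*, 2 enzymes at the branch point of glucose and lipid metabolism were among the 25 genes. *Gpd1*, which forms glycerol 3-phosphate from a glycolytic intermediate, had 91.9, 92.5, 112 and 127 against 22.3, 24.3, 26.4 and 27.1 CPM (2.05 ± 0.074), and *Pcx*, encoding pyruvate carboxylase, 52.8, 57.997, 55.2 and 46.1 against 18.5, 17.4, 21.8 and 20.7 CPM (1.43 ± 0.10). The groups did not overlap for either gene. *Slc1a5*, a glutamine transporter, *Aoc3*, an amine oxidase of the adipocyte surface, and *Nnmt*, which methylates nicotinamide, had log2 fold changes of 1.57 ± 0.086, 1.61 ± 0.092 and 1.87 ± 0.15. *Adig*, encoding adipogenin, *Sncg*, encoding γ-synuclein, and *Fcor*, a corepressor of FOXO1, had 1.82 ± 0.13, 1.96 ± 0.12 and 1.70 ± 0.14. *Nnat*, an imprinted gene that encodes neuronatin, had 41.4, 49.2, 50.2 and 69.5 against 7.89, 5.52, 8.53 and 7.54 CPM (2.78 ± 0.14).

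The last pair among the 25 genes stood less firmly. *Hmcn2*, an extracellular matrix protein, had 20.01, 27.9, 17.1 and 16.8 against 6.43, 7.94, 8.23 and 8.54 CPM (1.41 ± 0.16), but in the right-hand strip alone the log2 fold change was 0.079 (edgeR adjusted p = 0.96). *Gm6358*, a predicted gene, had 7.73, 16.4, 133 and 24.2 CPM in adipose and 6.596, 6.86, 28.6 and 15.1 CPM in other spots, so that the groups overlapped and replicate 3 led in both. Its log2 fold change of 1.50 ± 0.20 was past the threshold with the slice as a block (edgeR adjusted p = 6.7e-06) and not without it (adjusted p = 0.12) or with DESeq2 (adjusted p = 0.084).

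**Figure D3:**
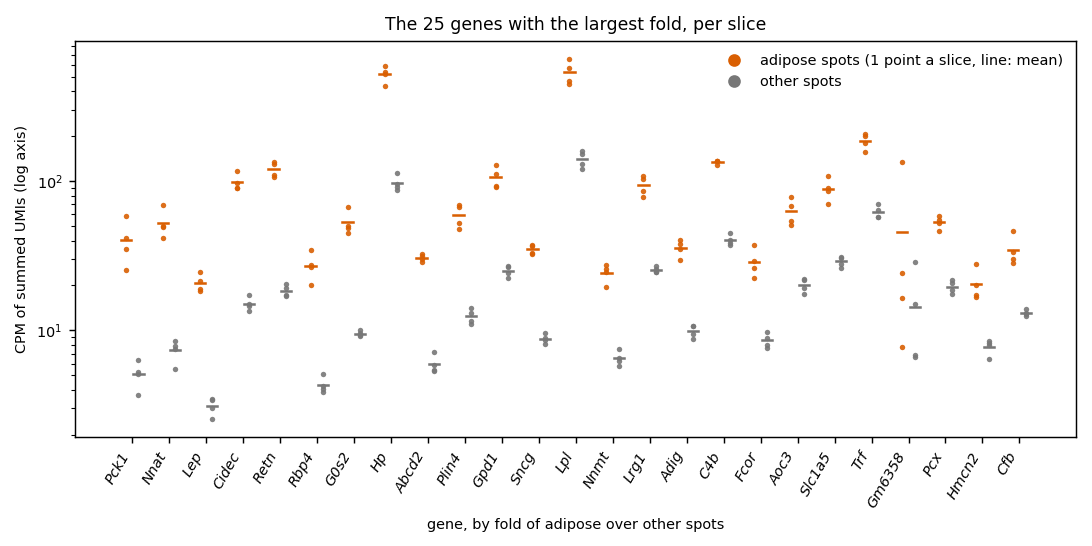
CPM (log axis) of the 25 genes with the largest fold, ordered by fold; each point is a slice and lines are means, in orange for adipose and grey for other spots. The points of the 2 groups are separated for every gene but Gm6358, whose adipose values run from 7.73 to 133 CPM. The choice of genes by fold and direction largely fixed this separation beforehand.

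Regulatory sequence before these genes was searched for binding motifs of factors known from fat cells. The RefSeq promoter table (GRCm38.p6) held 23 of the 38 genes among the 25 and the 23 markers, with 32 start sites, and the 250 bases before each start were read on both strands. The C/EBP palindrome TTGCGCAA stood before *Lep* alone of these genes and in 0.164% of the 32851 promoters in the table. Its looser form TTNNGCAA, which the palindrome also matches, stood before *Lep*, *Cidec*, *Pparg* and *Rbp4* and in 9.56% of all promoters. The cAMP response element TTACGTCA stood before *Pck1* alone and in 0.447%. The consensus direct repeat to which PPARγ and RXR bind as a pair stood before none of the genes and in 0.0335% of all promoters. The sequences of the leading hormone and the leading enzyme are shown 5′ to 3′ up to the base before the RefSeq start, which lies 1 base after the GENCODE start given above in *Lep* and 25 bases after it in *Pck1*, with the C/EBP palindrome in capitals in *Lep* (chr6:29059971-29060220) and the cAMP response element in capitals in *Pck1* (chr2:173152823-173153072), both on the plus strand. A match of letters is a description and was not tested as a binding site.
Lep: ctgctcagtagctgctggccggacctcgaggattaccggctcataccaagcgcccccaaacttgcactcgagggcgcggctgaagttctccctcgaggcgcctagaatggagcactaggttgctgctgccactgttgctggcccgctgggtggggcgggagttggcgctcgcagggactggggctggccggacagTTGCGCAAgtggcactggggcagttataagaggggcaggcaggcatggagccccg
Pck1: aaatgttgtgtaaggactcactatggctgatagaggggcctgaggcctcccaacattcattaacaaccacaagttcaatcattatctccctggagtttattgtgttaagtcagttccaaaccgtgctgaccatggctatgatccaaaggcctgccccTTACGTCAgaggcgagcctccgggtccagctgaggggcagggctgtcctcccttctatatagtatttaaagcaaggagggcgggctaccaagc
In *Lep* the capitals begin 55 bases before the RefSeq start and in *Pck1* 93 bases before it.

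Other spots mix all layers of the skin, so adipose spots were next set against 3 regions chosen in the same way from genes of other cells, with spots in both regions left out of both. The sebaceous-gene region (*Mgst1*, *Scd3*, *Cidea*, *Awat1*, *Soat1* and *Far2*) is also rich in lipid metabolism, the muscle-gene region is the neighbouring layer, and the fibroblast-gene region (*Col1a1*, *Col1a2*, *Col3a1*, *Dcn*, *Lum* and *Mfap5*) stands for the dermis. Of the 449 spots of each region, 56 muscle-gene, 11 fibroblast-gene and 11 sebaceous-gene spots were also adipose spots. Against the muscle-gene region 23 of the 25 genes were higher and 1 lower, where 12.1% of 10039 genes were higher and 15.4% lower. Against the fibroblast-gene region 24 were higher and none lower (21.8% of 10162 genes higher), and against the sebaceous-gene region 23 were higher and 2 lower (22.4% of 10035 higher and 24.5% lower). The median log2 fold changes of the 25 genes were 1.81, 1.77 and 1.90. The 25 genes had been chosen for their fold and their level in these same adipose spots, which fixed most of these directions beforehand, so nothing is read from the counts against the shares of all genes. The comparisons also share the adipose spots.

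Against muscle-gene spots, *Gpd1* was at −0.091 ± 0.10 (log2 fold change, edgeR adjusted p = 0.54), and *Plin4* and *Abcd2* were at 0.41 ± 0.13 and 0.75 ± 0.18, whereas *Rbp4*, *Hp* and *Lep* were at 3.64 ± 0.33, 3.20 ± 0.091 and 3.08 ± 0.33. *Hmcn2* was lower than in muscle-gene spots (−1.27 ± 0.18, adjusted p = 7.4e-07). Against sebaceous-gene spots, *Adig* (−0.55 ± 0.16) and *Pcx* (−0.58 ± 0.11) were lower, and *Retn*, at 1.53 ± 0.12, differed less than *Cidec* at 3.36 ± 0.21. Against fibroblast-gene spots *Cfb* did not pass the test (−0.039 ± 0.19, adjusted p = 0.89). Whether the fold of one gene differed from that of another was not tested.

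**Figure D4:**
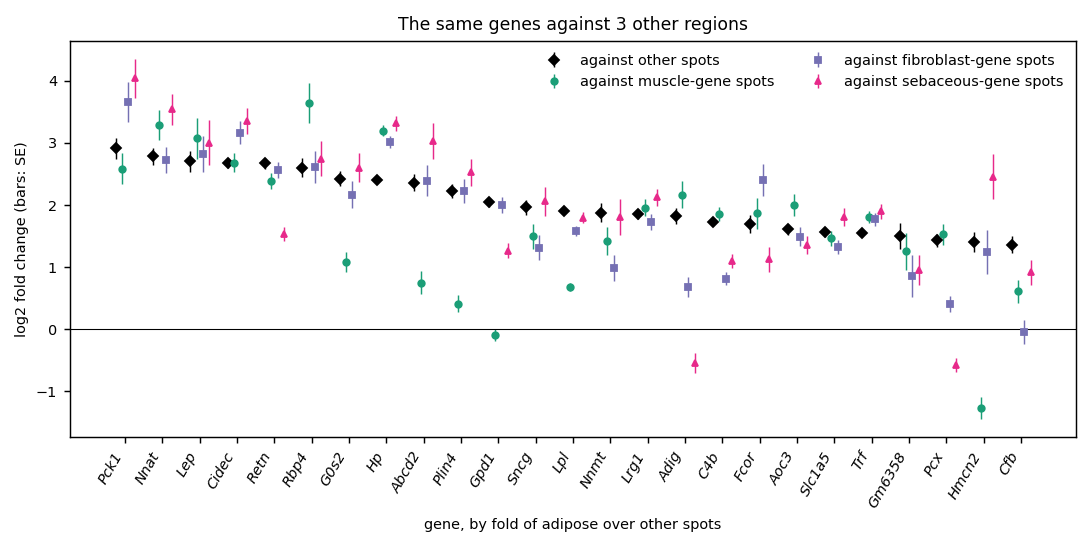
Log2 fold changes (bars are SE of the edgeR fit over 4 slices) of the same 25 genes in adipose spots against other, muscle-gene, fibroblast-gene and sebaceous-gene spots. Nearly all values lie above 0; Gpd1 and Hmcn2 against muscle-gene, Cfb against fibroblast-gene, and Adig and Pcx against sebaceous-gene spots do not.

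At least 2-fold higher genes numbered 173 against muscle-gene (1.72%), 434 against fibroblast-gene (4.27%) and 556 against sebaceous-gene spots (5.54%), and at least 2-fold lower genes made up 6.18%, 8.82% and 8.57% of those fitted. The split between directions depended on the scaling in the muscle comparison, with 173 higher and 620 lower genes under TMM and 393 higher and 486 lower under library size alone. Library size alone moved the median of all genes there from 0.018 to 0.25. Of the 207 genes at least 2-fold higher than in other spots, 103 could be fitted in all 4 comparisons, and 26 of these were at least 2-fold higher in all 4. All 4 comparisons share the adipose spots in which the 207 genes were high, which favoured these directions beforehand. No share of all genes is set beside this count, and nothing is read from it. *Pck1*, *Nnat*, *Lep*, *Cidec*, *Retn*, *Rbp4*, *G0s2* and *Hp* were among the 26.

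The pathways of the adipocyte are described by counts and medians, and the lists were not tested against each other. Counts of list members are given at an adjusted p under 0.05 (edgeR), to be read against the 8.99% of genes that were higher and the 9.39% that were lower than in other spots. Counts against a single region are to be read against that region's own shares, 12.1% higher and 15.4% lower for muscle-gene, 21.8% and 23.1% for fibroblast-gene and 22.4% and 24.5% for sebaceous-gene spots. Counts within the right-hand strip are to be read against the 1.36% of genes that were higher and the 0.894% that were lower there. Of 11 genes of fatty acid uptake and binding, 8 were higher and 1 lower, with a median log2 fold change of 0.71. *Lpl* and *Cd36*, a fatty acid translocase (171 ± 23.7 against 66.3 ± 9.38 CPM, 1.34), were higher, as was *Acsl1*, which activates fatty acids to acyl-CoA (102 ± 19.4 against 44.2 ± 4.44 CPM, 1.16). *Gpihbp1*, which holds lipoprotein lipase on capillaries, had 39.1 ± 3.96 against 23.5 ± 2.97 CPM (0.71). *Fabp5*, the carrier that keratinocytes use, had 2007 ± 246 against 2048 ± 228 CPM (adjusted p = 0.26), and *Slc27a4*, the fatty acid transporter of epidermis, was lower (78.96 ± 6.31 against 124 ± 7.11 CPM, −0.69).

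Fatty acid synthesis moved in both directions. Of 17 genes 8 were higher and 4 lower, with a median of 0.19. *Fasn*, encoding fatty acid synthase, had 429, 429.5, 466 and 429.6 CPM in adipose and 226, 228, 232 and 220.1 CPM in other spots, without overlap (0.93 ± 0.044, edgeR adjusted p = 2.4e-13). *Scd1*, the desaturase that makes oleate, had 947 ± 122 against 533 ± 52.7 CPM (0.80), and *Acaca*, encoding acetyl-CoA carboxylase, had 68.2 ± 6.399 against 38.2 ± 3.56 CPM (0.81). The elongases *Elovl6* (67.999 ± 8.24 against 131 ± 15.7 CPM, −0.97), *Elovl1* (−0.53) and *Elovl5* (−0.44) were lower, as was *Fads3* (−0.22). *Fads3* turned direction with limma (0.0086) and with thinned spots (0.027), and it was higher in the right-hand strip (0.49, edgeR adjusted p = 0.0025). Elongases are also expressed by sebocytes and keratinocytes. Against sebaceous-gene spots 3 of 16 genes of this list were higher and 10 lower, with a median of −1.08, where 22.4% of all genes were higher and 24.5% lower. Against fibroblast-gene spots 4 of 16 were higher and 7 lower (median −0.24, all genes 21.8% and 23.1%), and against muscle-gene spots 10 of 17 were higher and 2 lower (median 0.42, all genes 12.1% and 15.4%).

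Of 14 genes of triglyceride synthesis 7 were higher and 1 lower, with a median of 0.51. Besides *Pck1* and *Gpd1*, *Agpat2*, whose human counterpart is mutated in congenital lipodystrophy, had 65.7 ± 4.96 against 27.7 ± 1.02 CPM (1.21), and the terminal acyltransferase *Dgat2* had 123 ± 15.3 against 69.4 ± 7.24 CPM (0.79). *Lpin3*, a phosphatidate phosphatase, was lower (43.1 ± 6.19 against 66.5 ± 4.41 CPM, −0.66), whereas *Lpin1*, the family member of fat and muscle, was higher (16.3 ± 1.88 against 9.1002 ± 1.01 CPM, 0.83). Of 11 lipid droplet proteins 4 were higher and 2 lower, and their median of 0.055 was near that of all genes. *Cidec*, *G0s2*, *Plin4* and *Fitm1* (41.3 ± 6.07 against 20.3 ± 3.02 CPM, 1.05) were the higher ones, and *Fitm1* is also a gene of skeletal muscle. *Cidea*, which sebocytes express, was lower (10.98 ± 1.76 against 40.4 ± 2.47 CPM, −1.92) and so was the widely expressed *Plin2* (70.99 ± 8.33 against 82.1 ± 3.34 CPM, −0.25). *Cidea* is a score gene of the sebaceous-gene region but not of the adipose score.

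Of 9 lipolysis genes 5 were higher and none lower, with a median of 0.75. *Pnpla2*, encoding adipose triglyceride lipase, had 101 ± 12.2 against 46.8 ± 3.44 CPM (1.08) and *Lipe*, encoding hormone-sensitive lipase, 73.1 ± 11.6 against 42.3 ± 5.37 CPM (0.75). *Adrb3*, the adrenoceptor that starts lipolysis in mouse fat, had 4.55, 6.57, 6.98 and 16.8 against 1.38, 1.39, 1.06 and 1.72 CPM, with a log2 fold change of 2.52 ± 0.30 that rests on few UMIs. *Pde3b*, the phosphodiesterase through which insulin restrains lipolysis, had 5.76 ± 1.61 against 1.41 ± 0.1504 CPM (2.01). The lipase cofactor *Abhd5* (57.7 ± 7.9997 against 64.6 ± 5.54 CPM, adjusted p = 0.1) and *Mgll*, which splits monoglycerides (114 ± 5.51 against 108 ± 9.25 CPM, adjusted p = 0.61), did not pass the test.

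Of 18 genes of fatty acid oxidation 2 were higher, *Etfb* (0.17) and *Acadm* (0.43), and none lower, with a median of 0.13. Of all genes 8.99% were higher and 9.39% lower. *Cpt1a*, which admits fatty acids to mitochondria, had 71.1 ± 10.8 against 76.7 ± 4.07 CPM (adjusted p = 0.18). Of 16 genes of branched-chain amino acid breakdown, a pathway of many tissues from which fat cells also draw acetyl-CoA, 8 were higher and none lower, with a median of 0.32, among them *Aldh6a1* (44.4 ± 7.66 against 27.3 ± 2.29 CPM, 0.66), *Hibch* (0.55) and *Bcat2* (0.40). Against muscle-gene spots none of the 16 was higher by edgeR and 2 were lower (median −0.16), against fibroblast-gene spots 5 were higher and 2 lower (0.31) and against sebaceous-gene spots 3 were higher and 4 lower (−0.034). Within the right-hand strip, where 1.36% of all genes were higher, 1 was higher, with a median of 0.34. Of 12 genes of insulin action and glucose uptake, 4 were higher and none lower, with a median of 0.16. Among these were *Slc2a4*, the insulin-regulated glucose transporter of fat and muscle (31.3 ± 4.16 against 14.9 ± 2.68 CPM, 1.07), *Trarg1*, which travels with it (14.7 ± 4.92 against 2.93 ± 0.372 CPM, 2.25) and *Pde3b*. The insulin receptor gene *Insr* had 14.7 ± 1.602 against 13.3 ± 1.26 CPM (adjusted p = 0.62).

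Of 15 adipogenic transcription factors 6 were higher and 1 lower, with a median of 0.31. *Pparg*, the central regulator of adipocyte differentiation, had 7.73, 9.85, 9.52 and 13.9 CPM in adipose spots and 4.09, 4.08, 3.63 and 4.16 CPM in other spots, without overlap (1.29 ± 0.21, edgeR adjusted p = 8.6e-05). *Ebf1* (30.4 ± 8.93 against 15.4 ± 3.77 CPM, 0.94), the liver X receptor gene *Nr1h3* (0.94), *Mlxipl*, encoding the glucose sensor ChREBP (0.87), *Srebf1* (0.47) and *Klf15* (0.54) were the others. *Cebpb*, an early factor of differentiation, was lower (147 ± 28.8 against 167 ± 34.3 CPM, −0.20). Against fibroblast-gene spots 1 of 12 genes of the list was higher and 7 lower (median −0.38), against sebaceous-gene spots 1 of 12 was higher and 6 lower (−0.55), and against muscle-gene spots 4 of 13 were higher and 2 lower (0.13). None of the 13 genes fitted in the right-hand strip passed the test by edgeR, where 1.36% of all genes were higher and 0.894% lower. The median of the list there was 0.33.

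Of 18 adipokines and secreted factors 10 were higher and 2 lower, with a median of 0.58. Besides the leading genes, *Igf1*, a growth factor (70.4 ± 16.7 against 36.7 ± 6.52 CPM, 0.90), *Rarres2*, encoding chemerin (92.6 ± 7.46 against 56.9 ± 2.99 CPM, 0.67), *Mest* (12.6 ± 4.48 against 3.91 ± 0.433 CPM, 1.67), *Angptl4* (0.37) and *Lcn2* (1.12) were higher. *Serpina12*, encoding vaspin, which was named as an adipokine of visceral fat, was among the genes with the lowest fold (1.36, 6.57, 2.54 and 7.32 CPM in adipose and 36.3, 26.8, 25.6 and 34.8 CPM in other spots, −2.92 ± 0.23), and *Apoe* was lower as well (3365 ± 566 against 6274 ± 750.2 CPM, −0.93). Of 9 signals by which fat and follicle are known to address each other, *Igf1* and *Pdgfra* (0.41) were higher and *Bmp2*, a signal that fat sends to resting follicles, was lower (16.5 ± 2.597 against 21.01 ± 1.07 CPM, −0.39), and the median of the list was −0.12. *Pdgfa*, the ligand of *Pdgfra*, had 16.3 ± 2.19 against 17.7 ± 2.46 CPM (adjusted p = 0.64), and *Bmp4* had 25.4 ± 2.71 against 25.6 ± 5.71 CPM (adjusted p = 0.95).

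Genes of caveolae and of basement membranes were counted next, and the cells from which their RNA came were not told apart. Of 9 genes of caveolae, the membrane pits in which adipocytes abound, 6 were higher and none lower, with a median of 0.45. *Cav1* had 127 ± 24.7 against 62.7 ± 4.07 CPM (0.98) and *Cavin2* 47.4 ± 7.38 against 23.5 ± 1.28 CPM (0.97), and *Cav3*, the caveolin of muscle, had 16.9 ± 1.87 against 8.87 ± 1.17 CPM (0.94). Each adipocyte is wrapped in a basement membrane, and of 18 such genes 10 were higher and none lower, with a median of 0.32. The collagen IV genes *Col4a1* (215 ± 10.4 against 134 ± 10.5 CPM, 0.66) and *Col4a2* (0.58), *Nid1* (50.6 ± 8.37 against 28.1 ± 1.01 CPM, 0.80), *Nid2* (1.30) and *Lama4*, the laminin chain of fat cells and vessels (0.51), were higher. Against each single region more of the same 18 genes were lower than higher. There were 1 higher and 9 lower against muscle-gene spots (median −0.25, all genes 12.1% and 15.4%). Against fibroblast-gene spots 2 were higher and 12 lower (−0.58, all genes 21.8% and 23.1%). Against sebaceous-gene spots 6 were higher and 9 lower (−0.20, all genes 22.4% and 24.5%). Of 8 thermogenic genes 4 were higher and 1 lower, but *Cox8b* (0.84), *Cox7a1* (0.71) and *Cpt1b* (0.87) are also genes of muscle, and without adipose spots that were also muscle-gene spots 1 of the 8 was higher. This was *Kcnk3*, a potassium channel (6.15 ± 1.83 against 0.948 ± 0.4498 CPM, 2.69). *Prdm16* (2.097 ± 1.89 against 2.02 ± 0.372 CPM, adjusted p = 0.98) and *Ppargc1a* (4.96 ± 0.755 against 4.01 ± 0.594 CPM, adjusted p = 0.44) did not pass the test.

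Counts against the single regions differed from those against other spots for several lists, and they follow in the order muscle-gene, fibroblast-gene and sebaceous-gene spots (edgeR, adjusted p under 0.05), to be read against the shares of all genes given above. Fatty acid oxidation had 1 of 18, 4 of 18 and 0 of 18 genes higher and 10, 2 and 11 lower, with medians of −0.30, 0.11 and −0.35. The adipokines and secreted factors had 9 of 15, 6 of 15 and 6 of 15 genes higher and 3, 6 and 6 lower, with medians of 1.13, −0.22 and −0.25. Insulin action and glucose uptake had 1 of 11, 2 of 10 and 2 of 10 genes higher and 4, 4 and 3 lower, with medians of −0.089, −0.25 and −0.24. The 3 lists named so far had more lower than higher genes, or as many, against at least 2 of the 3 regions. In the right-hand strip 0 of 18 oxidation genes passed the test by edgeR, with a median of 0.21, and 1 of 11 genes of insulin action and glucose uptake was higher, with a median of 0.15. Fatty acid uptake and binding had 7 of 11, 7 of 11 and 6 of 11 genes higher and 2, 1 and 2 lower, with medians of 0.37, 0.42 and 1.15. Triglyceride synthesis had 4 of 12, 3 of 12 and 3 of 12 genes higher and 3, 1 and 5 lower, with medians of −0.026, 0.065 and −0.19. The lipid droplet proteins had 6 of 11, 4 of 11 and 4 of 10 genes higher and 2, 5 and 5 lower, with medians of 0.41, −0.20 and −0.50. Of fatty acid uptake and binding, triglyceride synthesis and the lipid droplet proteins, the first alone had a median above 0 in each comparison. Lipolysis had 2 of 5, 2 of 5 and 2 of 5 genes higher and 0, 2 and 1 lower, with medians of 0.23, 0.029 and 0.047. The caveolar list had 3 of 9, 4 of 9 and 4 of 9 genes higher and 2, 3 and 3 lower, with medians of −0.0096, 0.18 and 0.21. The signals between fat and follicle had 1 of 8, 1 of 8 and 1 of 8 genes higher and 4, 4 and 2 lower, with medians of −0.35, −0.43 and −0.19. Of the 9 lipolysis genes fitted against other spots, 5 passed the filter on low counts here. The thermogenic list had 0 of 4, 3 of 4 and 3 of 4 genes higher and 3, 1 and 1 lower, with medians of −2.91, 1.50 and 2.79. The list of adipocyte markers had 17 of 20, 18 of 20 and 17 of 20 genes higher and 1, 1 and 2 lower, with medians of 1.15, 1.46 and 1.67.

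**Figure D5:**
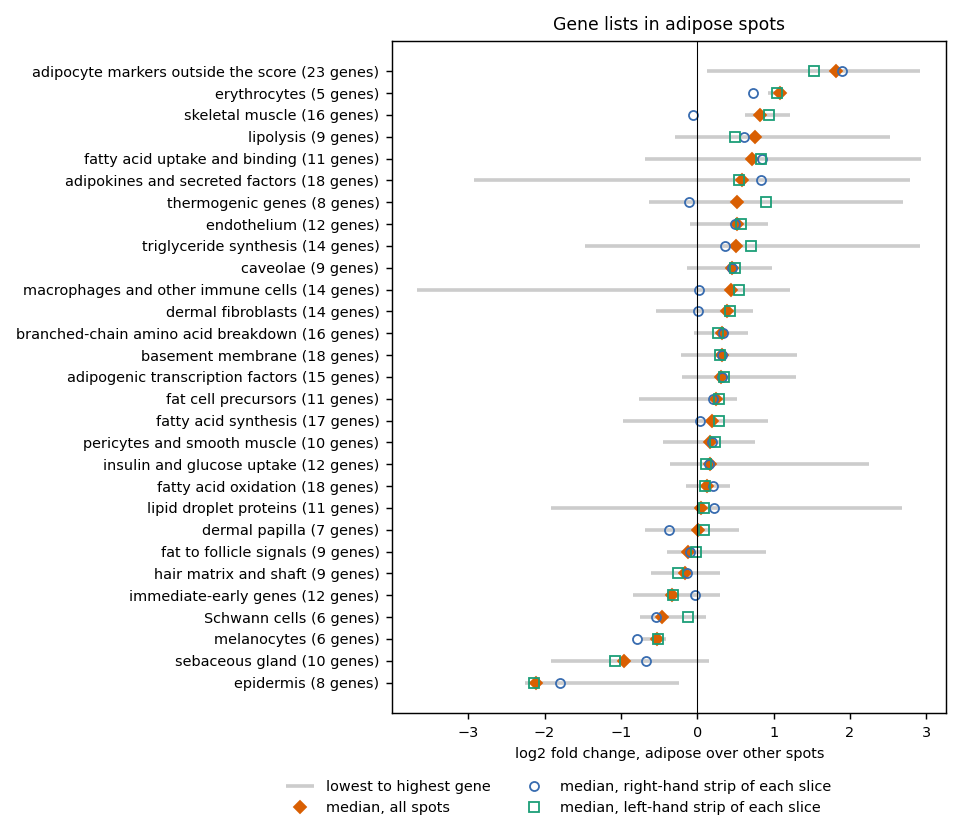
Median log2 fold change of each gene list in adipose against other spots (diamonds), with the range over its genes (grey lines) and the medians within the right-hand strip (circles) and left-hand strip (squares) of each slice. Adipocyte markers lead in all 3, whereas the skeletal muscle list lies at 0.83 over all spots, −0.055 in the right-hand and 0.95 in the left-hand strip.

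Markers of other cell types were counted in the same spots. Fewer cells of a type and less RNA per cell cannot be told apart in such sums. All 16 skeletal muscle genes were higher in adipose spots, with a median of 0.83. Their summed level was 14545, 15409.7, 14719.7 and 13384 CPM in adipose and 6332, 8663, 9219 and 8347 CPM in other spots, and *Acta1* was the most abundant on the UMI scale (3345 ± 222 against 1855 ± 324 CPM, 0.84 ± 0.055). None of the 16 was at 0. Without the 56 adipose spots that were also muscle-gene spots, 5 of the 16 genes were higher and the median was 0.12. In the right-hand strip, where adipose spots lay away from the muscle, none of the 16 was higher or lower and the median was −0.055, and in the left-hand strip all 16 were higher with a median of 0.95. Calls were rarer among all genes in the right-hand strip, with 1.36% higher and 0.894% lower, than in the left-hand strip, with 7.73% and 8.39%, against which the counts are to be read, and without the 56 spots the shares were 6.27% and 7.51%. The difference between the strips was not tested. Of the 23 adipocyte markers 22 were higher with a median of 1.90 after the 56 spots had been left out. In the right-hand strip 18 of 23 were higher (median 1.90) and in the left-hand strip 20 of 21 (1.53). In the middle strip the median of the 17 markers fitted was 1.46. The part of muscle RNA in these differences was not tested.

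Of 12 endothelial genes 10 were higher and none lower, with a median of 0.52. *Pecam1* had 33.7, 40.5, 59.04 and 37.3 CPM in adipose and 23.03, 24.3, 27.1 and 28.9 CPM in other spots (0.70 ± 0.11, edgeR adjusted p = 6.6e-05), and *Emcn*, a gene of capillaries and veins, 12.5 ± 3.46 against 6.57 ± 0.272 CPM (0.93). Their summed level was 297, 267, 312 and 288 CPM against 186, 209, 215 and 207 CPM. All 5 erythrocyte genes were higher, with a median of 1.08 and a summed level of 3223, 2142, 3587 and 3058 CPM against 1542, 1425, 1276 and 1309 CPM, with *Hbb-bs* the most abundant on the UMI scale (1289 ± 268 against 623 ± 87.1 CPM). The reads of *Hba-a1* and *Hba-a2* and of *Hbb-bs* and *Hbb-bt* can be split between near-identical copies, so their single values are uncertain, and *Alas2*, the haem synthesis enzyme of red cells, which has no such copy, had 11.5 ± 3.07 against 5.89 ± 0.557 CPM (0.93). Against muscle-gene spots, where 12.1% of all genes were higher and 15.4% lower, 0 of 12 endothelial genes were higher and 4 lower, and 0 of 5 erythrocyte genes were higher and 4 lower. Erythrocyte genes were higher in 5 of 5 against fibroblast-gene spots (median 1.58) and in 4 of 5 against sebaceous-gene spots (2.40), whereas 1 of 12 endothelial genes was higher and 2 lower against the former (−0.25) and 1 higher and 1 lower against the latter (0.13). In the right-hand strip none of the endothelial genes passed the test by edgeR, with a median of 0.50, and 3 erythrocyte genes were higher. Of 10 genes of pericytes and smooth muscle 3 were higher, *Des*, *Rgs5* (57.9 ± 6.801 against 35.4 ± 3.27 CPM, 0.68) and *Abcc9* (0.76), with a median of 0.17, and *Des* is also a gene of skeletal muscle.

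Immune markers moved in both directions. Of 14 genes 7 were higher and 2 lower, with a median of 0.44. The macrophage genes *C1qa* (53.7 ± 4.48 against 31.8 ± 1.77 CPM, 0.71), *C1qb* (0.74), *C1qc* (0.78), *Lyz2* (99.1 ± 27.3 against 64.1 ± 7.56 CPM, 0.58), *Mrc1* (0.43) and *Csf1r* (0.46) and the mast cell gene *Cpa3* (1.22) were higher. *Cd74*, the invariant chain of antigen-presenting cells, was lower (85.9 ± 13.9 against 142 ± 17.8 CPM, −0.77), and *Cd3e*, a T cell gene, was lower at 0.137 ± 0.274 against 1.95 ± 0.661 CPM, with a UMI in adipose spots of 1 slice of 4. None of 12 genes fitted in the right-hand strip passed the test by edgeR, and their median was 0.018. Against fibroblast-gene spots 0 of 11 were higher and 10 lower, where 21.8% of all genes were higher and 23.1% lower.

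Dermal fibroblast genes were not uniform either. Of 14 genes 9 were higher and 2 lower, with a median of 0.40. *Col1a1* had 2287, 1559.9, 2176 and 2600.3 CPM in adipose and 3921, 2534, 2624 and 3185 CPM in other spots (−0.53 ± 0.059, edgeR adjusted p = 3.3e-07), and *Col1a2* was lower as well (−0.40), while *Col3a1* (2686 ± 224 against 1967 ± 229 CPM, 0.43), *Postn* (285 ± 28.9 against 171 ± 16.5 CPM, 0.71) and *Mfap5* (0.72) were higher. The *Col1a1* values of the groups overlapped. The right-hand strip alone had 1 of the 14 genes higher and 2 lower, with a median of 0.0066. Of 11 genes of fat cell precursors 4 were higher and none lower, with a median of 0.24, namely *Ly6a* (174 ± 9.32 against 131 ± 2.43 CPM, 0.39), *Cd24a* (0.24), *Pdgfra* and *Pi16* (0.20). *Cd34* had 108 ± 17.03 against 101 ± 6.13 CPM (adjusted p = 0.63) and *Dpp4* 47.8 ± 7.61 against 41.4 ± 1.81 CPM (adjusted p = 0.24).

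The outer layers of the skin were depleted. All 8 epidermal genes were lower, with a median of −2.12, and no adipose spot was an epidermis-gene spot. *Krt10*, a keratin of differentiating keratinocytes, had 111, 59.6, 79.99 and 131 CPM in adipose and 431, 309.6, 299 and 478 CPM in other spots (−2.04 ± 0.065, edgeR adjusted p = 1.4e-16), and *Lor*, encoding loricrin, 113 ± 22.1 against 519 ± 83.9 CPM (−2.23). The basal keratins *Krt14* (−0.31) and *Krt5* (−0.23), which follicles also express, differed least, and in the right-hand strip they were higher in adipose spots (0.45 and 0.43, edgeR adjusted p = 0.0017 and 4.7e-04). The 10 genes with the lowest folds were *Serpina12*, *Lce1b*, *Lce1m*, *Lce1c*, *Lce1a2* and *Lce1a1* of the late cornified envelope, *Flg* and *Flg2* of the filaggrin family, *2310050C09Rik* and *Fcgbp*, with log2 fold changes between −2.97 and −2.32. *Flg* had 3.64, 4.38, 6.35 and 2.196 against 25.7, 27.6, 21.2 and 34.3 CPM. The reads of the *Lce1* genes can be split between near-identical copies.

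Of 10 sebaceous gland genes 9 were lower and *Mgst1* was higher (394 ± 19.7 against 349 ± 7.75 CPM, 0.15), with a median of −0.96. *Scd3* (9.29 ± 3.39 against 26.6 ± 2.69 CPM, −1.62) and *Awat1* (−1.42), an enzyme of wax ester synthesis, were among the lower ones. Of 6 melanocyte genes 5 were lower, with a median of −0.53 (*Dct* 117 ± 13.99 against 174 ± 10.3 CPM, −0.59), and of 6 Schwann cell genes 2 were lower, with a median of −0.47. Of 9 genes of hair matrix and shaft 4 were lower and *Mki67*, a gene of dividing cells, was higher (122 ± 10.7 against 97.9 ± 8.99 CPM, 0.30) but had a log2 fold change of −0.43 in the right-hand strip (edgeR adjusted p = 0.1). The median of the list was −0.16, and none of 7 dermal papilla genes passed the test in either direction by edgeR (*Corin* 8.72 ± 1.94 against 6.04 ± 1.16 CPM, adjusted p = 0.074). At an unadjusted p under 0.05, 1 of the 7 passed by edgeR (*Corin*), 0 by DESeq2 and 0 by limma. No share of all genes at this threshold is given here, so nothing is read from these counts.

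Against the single regions, in the same order, the lists of other cell types were as follows, and the 6 genes of a region's own score are left out of its comparison. Dermal fibroblasts had 1 of 14, 0 of 8 and 2 of 14 genes higher and 10, 7 and 11 lower, with medians of −0.50, −1.20 and −0.78. Fat cell precursors had 1 of 9, 2 of 9 and 1 of 9 genes higher and 3, 7 and 5 lower, with medians of −0.19, −1.18 and −0.57. Pericytes and smooth muscle had 0 of 10, 2 of 10 and 3 of 10 genes higher and 4, 4 and 4 lower, with medians of 0.054, −0.13 and −0.22. The fibroblast and precursor lists, with more higher than lower genes against other spots, had more lower than higher genes against each region. Melanocytes had 0 of 6, 4 of 6 and 4 of 5 genes higher and 2, 0 and 0 lower, with medians of −0.26, 0.82 and 1.11. Hair matrix and shaft had 2 of 8, 8 of 8 and 8 of 8 genes higher and 1, 0 and 0 lower, with medians of 0.072, 1.04 and 1.28. Schwann cells had 0 of 5, 0 of 4 and 0 of 4 genes higher and 5, 4 and 4 lower, with medians of −1.65, −1.81 and −0.82. Melanocyte and hair genes, of which more were lower than higher against other spots, were mostly higher than in fibroblast-gene and sebaceous-gene spots. The epidermal list had 3 of 8, 0 of 8 and 0 of 8 genes higher and 0, 8 and 8 lower, with medians of −0.071, −3.95 and −3.50. The sebaceous list had 2 of 8, 0 of 10 and 0 of 4 genes higher and 0, 9 and 4 lower, with medians of 0.31, −2.37 and −1.96. The skeletal muscle list had 0 of 10, 16 of 16 and 16 of 16 genes higher and 10, 0 and 0 lower, with medians of −3.11, 1.56 and 2.89. All 16 muscle genes were higher than in fibroblast-gene and in sebaceous-gene spots. The immediate-early list had 3 of 10, 1 of 10 and 0 of 9 genes higher and 2, 7 and 6 lower, with medians of −0.042, −0.83 and −0.91. The dermal papilla list had 0 of 3, 1 of 1 and 1 of 1 genes higher and 0, 0 and 0 lower, with medians of −0.035, 1.35 and 1.28. The immune list had 0 of 7, 0 of 11 and 0 of 9 genes higher and 0, 10 and 7 lower, with medians of 0.077, −1.25 and −0.73. None of the 9 precursor genes fitted in the right-hand strip passed the test by edgeR, and their median was 0.21.

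*Krox20* (listed as *Egr2*, chr10:67535475-67542188), the gene whose lineage the study followed, had 20.9, 30.1, 19.7 and 37.3 CPM in adipose spots and 31.8, 34.4, 31.1 and 39.2 CPM in other spots, and the groups overlapped. The log2 fold change was −0.39 ± 0.11 (edgeR adjusted p = 0.019), and the call was lost without replicate 1 (−0.28, adjusted p = 0.16) or replicate 3 (−0.32, adjusted p = 0.086). A *Krox20* UMI was found in 27.6% ± 3.85 of adipose, 33.8% ± 2.22 of other and 29.02% ± 3.504 of epidermis-gene spots. *Krox20* was higher in adipose than in muscle-gene spots (1.06 ± 0.20) and lower than in fibroblast-gene (−1.11 ± 0.15) and sebaceous-gene spots (−1.40 ± 0.14). The *tdTomato* feature had 0.455, 0.547, 0 and 0.732 CPM in adipose spots and 0.809, 1.35, 1.16 and 1.498 CPM in other spots, too few UMIs to be fitted. *Krox20* is also an immediate-early gene. Of 12 such genes, which are quickly induced in stressed or handled tissue, 8 including *Krox20* were lower in adipose spots and none was higher, with a median of −0.33. In the right-hand strip none of 11 passed the test by edgeR, with a median of −0.031, and *Krox20* was at 0.023 (adjusted p = 0.98). *Egr1* had 97.1 ± 16.8 against 133 ± 17.3 CPM (−0.49), *Dusp1* 21.5 ± 6.33 against 34.4 ± 6.47 CPM (−0.67) and *Fos* 16.8 ± 8.39 against 26.1 ± 4.04 CPM (−0.70).

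Adipose spots varied among themselves. Over the adipose spots of a slice (102 to 123 spots, which share a library), Spearman's rho between the score and the summed level of the adipocyte markers outside it was 0.30 to 0.55 in the 4 slices. It was 0.30 to 0.54 for fatty acid synthesis, 0.21 to 0.49 for triglyceride synthesis and 0.21 to 0.36 for lipolysis. For skeletal muscle it was −0.23 to 0.11, and for the total UMIs of a spot −0.12 to 0.058. These values describe the spots and were not tested. The 306 adipose spots with an adipose neighbour and the 143 without differed little in adipocyte markers (log2 ratio 0.028 ± 0.15, SD of 4 slices). Immune markers were higher in spots with an adipose neighbour in 4 of 4 slices (0.72 ± 0.31), and so were endothelial genes (0.30 ± 0.19), caveolar genes (0.28 ± 0.16) and fatty acid synthesis (0.27 ± 0.095). Skeletal muscle genes were too (0.50 ± 0.35), but without replicate 4 the mean was 0.32. Genes of hair matrix and shaft were lower in 4 of 4 slices (−0.33 ± 0.23), whereas dermal fibroblast genes (0.47 ± 0.49) and erythrocyte genes (0.23 ± 1.30) varied between slices by more than their mean difference. With 4 slices the exact permutation test cannot go below 0.13.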

How the data were processed

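The authors cut fresh-frozen skin into sections for Visium slides and made the deposited counts with Space Ranger on the mm10 build, per the submitters' processing notes. The deposited values are raw UMI counts per gene and spot for 32286 features, not normalized, of the spots under tissue, with grid positions. The 4 slices held 6420 spots, of which 9 with fewer than 250 genes were left out. *CreERT* was not analysed here, and some single-gene results are not reported here. Pairs of slices shared 963 to 1403 barcodes, which the slides reuse, and no spot was identical in 2 slices. Doublets were not called, because spots are not cells.

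For each region the UMIs of a slice were added up and the sums compared by edgeR 4.0.16 in R 4.3.3 (TMM, filterByExpr, quasi-likelihood, the slice as a block, Benjamini-Hochberg adjustment over all genes fitted). The 6 score genes stayed in library sizes and were left out of the fit, likewise the score genes of a compared region. Levels are CPM of the summed counts, mean ± SD over 4 slices, and compare a gene between regions, not genes with each other. A gene was called at an adjusted p under 0.05, and counts of 2-fold genes also needed a log2 fold change of at least 1. Named genes were the 25 with the largest and the 10 with the lowest log2 fold change at an adjusted p under 0.05, the same direction in 4 of 4 slices and at least 20 CPM where higher, list genes by level, and the genes of the study. The members and the lists were chosen with earlier results of these data known. Both sums of a slice were taken from the same sections, so the slice pairs them, and the correlation of their deviations from the mean of each region was 0.26, 0.19, 0.090 and 0.18 over 13608 genes. In simulated counts for adipose against other spots, the test recovered 89% of 200 genes altered 2-fold among 13490 genes, and 6.81% of its calls were wrong. For genes altered by a log2 fold of 2 the values were 100% and 3.38% among 13500 genes. The simulated counts were drawn gene by gene, all altered genes were higher, and the remaining genes did not differ between regions. The real spots were chosen by a score and many genes differed in both directions, so these rates do not carry over to the calls above.

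Positions were compared with exact sign-flip permutation tests over slices. Gene positions come from GENCODE M21 (GRCm38) and promoters from RefSeq (GRCm38.p6). Alternatives covered DESeq2 1.42.0, limma 3.58.1 on mean CPM per spot (pseudocount 1 CPM), library size alone, no low-count filter, no block, each slice left out, other shares, thresholds and spot filters, thinned or split UMIs, another score, and comparison spots. Strips and zones were chosen once the maps were known.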

Additional observations from a re-analysis of the deposited data

Results flagged for a closer look

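A slice was compared with the other 3 by Dixon's test in 388 groups of 4 values, and 17 passed its critical value. Chance alone passes about 1 in 20 groups. The groups were the CPM in adipose and in other spots of the genes described here, the log2 ratios of the genes named by fold and of the genes of the study, and the distances and neighbour shares. None of the log2 ratios, distances or shares passed. The values that passed in adipose spots included *Adipoq* at 298 CPM in replicate 4 (the others 199 to 216), *C4b* at 128 CPM in replicate 1 (each of the others 137) and *Cavin2* at 36.4 CPM in replicate 1 (the others 50.5 to 51.4). They also included *Cd3e* at 0.547 CPM in replicate 2 (each of the others 0), *Fasn* at 466 CPM in replicate 3 (the others 429 to 429.6) and *Gm6358* at 133 CPM in replicate 3 (the others 7.73 to 24.2). Further values in adipose spots were *Gpihbp1* at 45.02 CPM in replicate 1 (the others 36.8 to 37.3), *Hba-a2* at 303 CPM in replicate 2 (the others 681 to 712) and *Lce1c* at 7.32 CPM in replicate 4 (the others 3.17 to 3.28). The remaining ones in adipose spots were *Plin2* at 83.4 CPM in replicate 4 (the others 66.2 to 67.9), *Slc7a10* at 19.7 CPM in replicate 3 (the others 13.1 to 13.2) and *Trarg1* at 21.96 CPM in replicate 4 (the others 11.4 to 13.2). In other spots a slice stood apart for *Acadm* at 45.6 CPM in replicate 4 (the others 40.02 to 40.7), *Apoe* at 7399 CPM in replicate 4 (the others 5875 to 5911) and *Cav3* at 7.12 CPM in replicate 1 (the others 9.38 to 9.596). The remaining ones in other spots were *Krt5* at 1847 CPM in replicate 4 (the others 1491 to 1531) and *Pparg* at 3.63 CPM in replicate 3 (the others 4.08 to 4.16).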

How the results depend on the processing

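The limits are the number of slices, which are technical replicates, the depth, at which many genes had too few UMIs in adipose spots to be fitted, and spots that hold several cell types. Over the 7 main results and 92 alternatives, 75 values stayed within a factor of 1.5 of the count reported, or within 1 SD of the share or distance reported, and 17 moved further. The widest of the 75 were 303 higher and 275 lower genes without neighbouring spots, 277 lower genes in the middle strip, and 131 and 135 lower genes with thinned and with split UMIs. The 207 genes at least 2-fold higher than in other spots became 120 with limma on mean CPM per spot, 137 with a score without *Car3* and *Cfd*, 136 with spots thinned to 5000 UMIs, 352 with the top 10% of spots and 71 in the right-hand strip, which holds 180 adipose spots. The 196 genes at least 2-fold lower became 125 with DESeq2 and 52 in the right-hand strip. The counts against muscle-gene, fibroblast-gene and sebaceous-gene spots became 260, 732 and 933 when no filter on low counts was used, so that more genes were tested, and that against muscle-gene spots became 393 with library size alone. The cause of the other changes was not tested. The share of adipose neighbours became 16.1% with the top 5% and 27.5% with the top 10% of spots, which also changes how many spots can be neighbours, and 16.4% with the score without *Car3* and *Cfd*, with which the distance to muscle-gene spots became 2.76 steps. It became 2.93 steps without muscle-gene spots and 2.95 with both changes, 2 alternatives added after the data had been seen, in which spots at distance 0 were removed. Leaving out each slice in turn gave 185 to 206 higher and 151 to 224 lower genes, 173 to 221, 427 to 544 and 584 to 656 genes higher than in muscle-gene, fibroblast-gene and sebaceous-gene spots, 18.6% to 21.1% adipose neighbours and 2.50 to 2.62 steps to muscle-gene spots.

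Without the replicate block, in which the slice pairs the sums of adipose and other spots, 186 genes were at least 2-fold higher and 155 at least 2-fold lower, and 172, 434 and 550 genes were higher than in the 3 regions. Among the 35 genes with the largest and lowest folds, 662 of 665 values under the alternatives tried kept direction and side of the threshold, and the other 3 were *Gm6358* with DESeq2, without the block and with the score without *Car3* and *Cfd*. Within the strips, an alternative added after the data had been seen, 101 of 104 did, except *Gm6358* in 2 strips and *Hmcn2* in the right-hand strip. The 35 genes had been chosen for their folds and calls in the main fit. Since the alternatives reuse the same slices and largely the same spots, most of this agreement was fixed beforehand.

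Among the 165 list genes tried under the same alternatives, 2850 of 3129 values kept direction and side of the threshold, 236 lost and 36 gained the call and 7 changed sign. Within the strips these were 341, 112, 5 and 26 of 484. In the right-hand strip the log2 fold change turned to −0.030 for *Acta1*, −0.13 for *Mylpf*, −0.078 for *Ckm*, −0.13 for *Tnnt3*, −0.0053 for *Atp2a1*, −0.046 for *Col3a1*, −0.080 for *Dcn*, −0.11 for *Myh1*, −0.14 for *Tnnc2*, −0.082 for *Tnni2*, −0.10 for *Des*, −0.16 for *Pi16*, −0.43 for *Mki67*, −0.10 for *Slc25a1*, −0.11 for *Cox7a1* and −0.48 for *Cpt1b*, and to 0.023 for *Egr2*, 0.065 for *Hoxc13*, 0.27 for *Mc5r*, 0.45 for *Krt14*, 0.43 for *Krt5*, 0.49 for *Fads3*, 0.057 for *Plin2* and 0.023 for *Egr1*. In the middle strip it turned to −0.081 for *Acly* and −0.086 for *Gpam*. Without muscle-gene members it turned to −0.054 for *Myh1* and −0.10 for *Des*, with limma to 0.0065 for *Hoxc13* and 0.0086 for *Fads3* and with thinned spots to 0.021 for *Hoxc13*, 0.027 for *Fads3* and 0.036 for *Ier2*. The cause of these turns was not tested.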

Other observations

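Of the 26 genes at least 2-fold higher in adipose spots than in other, muscle-gene, fibroblast-gene and sebaceous-gene spots, 12 lay outside the rule for naming genes or below its level, and 10 of them are described here, chosen after their values had been seen. The 4 comparisons share the adipose spots, so the 26 genes are a description. *Cyp2e1*, a cytochrome P450 best known from liver, had the largest difference (16.6 ± 4.26 against 1.65 ± 0.127 CPM, log2 fold change 3.27). *Alb*, encoding serum albumin, was also among them (15.6 ± 1.78 against 2.27 ± 0.318 CPM, log2 fold change 2.75). *Angptl8*, which fat and liver make after feeding and which restrains lipoprotein lipase, had 11.5 ± 1.88 against 1.51 ± 0.255 CPM, log2 fold change 2.93, and *Mrap*, the accessory protein that brings the corticotropin receptor to the surface of adrenal and fat cells, had 18.1 ± 1.22 against 2.397 ± 0.5002 CPM, log2 fold change 2.90.

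*Slc7a10*, a transporter of small neutral amino acids, had 14.8 ± 3.26 against 2.29 ± 0.139 CPM, log2 fold change 2.66. *Prkar2b*, the regulatory subunit of protein kinase A that predominates in fat, had 26.8 ± 4.16 against 10.5 ± 0.715 CPM, log2 fold change 1.32. *Cd1d1*, which presents lipids to natural killer T cells, had 18.2 ± 5.55 against 4.82 ± 0.792 CPM, log2 fold change 1.85, and *Mfng*, a glycosyltransferase that modifies Notch receptors, had 13.6 ± 2.53 against 3.55 ± 0.387 CPM, log2 fold change 1.95. *Smoc1*, a secreted matrix protein, and *Mmd* had log2 fold changes of 1.37 and 1.10.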
